A study of Rattus norvegicus with 9 samples.

Results

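The 32 genes described here code for the folding machinery of the endoplasmic reticulum (ER) and for the unfolded protein response (UPR), the signalling system that adjusts it. They come from a list of 34 genes named for their known roles, with no threshold on measured values. Earlier results of these data were known when the list was chosen. The genes were read from 1 table of log2 signals from Affymetrix whole-genome rat arrays hybridised with RNA from whole frozen rat liver. Each gene was read by the probe set with the highest mean signal among those that name it alone, which gave 14377 genes in all. Ern1, which codes for the sensor IRE1, and Syvn1, an ER ubiquitin ligase, were not read here because no probe set names either gene alone.

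The livers came from male Sprague-Dawley rats in 3 groups, with 1 array per rat and 3 rats per group. Rats of the vehicle group received neither agent, and what their vehicle contained is not given in the sources used here. Rats of the CCl4 group were injected intraperitoneally with carbon tetrachloride in olive oil for 8 weeks. This solvent is turned into toxic radicals in hepatocytes, and repeated injection is a common model of liver fibrosis. Rats of the CCl4+Rot group received the same CCl4 course and rottlerin at 2.5 mg/kg from 2 weeks after the first CCl4 injection. Rottlerin is a plant polyphenol that the study used as an activator of the BK potassium channel. No group received rottlerin without CCl4, and liver cell types were not separated.

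Proteins that are secreted or sit in membranes enter the ER through the translocon, are folded there by chaperones and oxidoreductases, and are returned to the cytosol for degradation when folding fails. When unfolded protein builds up, 3 ER sensors respond. IRE1 splices the mRNA of the transcription factor XBP1, ATF6 is cut to release a transcription factor, and PERK phosphorylates eIF2alpha, which slows translation while favouring that of ATF4. ATF6 and spliced XBP1 chiefly drive chaperone, translocon and degradation genes. ATF4 drives a separate set for amino acid supply, redox balance and, under lasting stress, cell death, and other kinases of eIF2alpha also feed into it. Hepatocytes secrete most plasma proteins and so have a large ER. The arrays read transcripts, so neither XBP1 splicing nor phosphorylation was measured.

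All signals below are on the log2 scale and were used as the authors had scaled them, and every difference is between group means on that scale. Differences were tested with limma over all 31042 probe sets, and a gene was called where the p adjusted by Benjamini-Hochberg was below 0.05 and the change at least 1.5-fold. With 3 arrays against 3, an exact permutation test cannot give a two-sided p below 0.1. CCl4 replicate 3 stood apart, with 12714 probe sets called present against 15550 to 16849 on the other arrays, and a median signal of 7.81 against 6.79 to 7.01. Centring each array on its median would therefore lower that array as a whole, and moved the median difference of all genes by -0.36 for CCl4 minus vehicle, by 0.25 for CCl4+Rot minus CCl4 and by -0.11 for CCl4+Rot minus vehicle. Quantile normalization moved the first of these by -0.12. Of the 32 genes, 30 were called present on all 9 arrays, Asns on 8 and Trib3 on 3.

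The promoters of 6 members are shown because they carry the short elements through which UPR factors are known to act, and because these genes went different ways in the arrays. The windows are the 250 bases before the annotated start site, from RefSeq on the GRCr8 assembly, written 5′ to 3′ on the strand of the gene. Capitals mark the fixed letters of a motif match on either strand.
Hspa5 (chr3:38452766-38453015, plus strand): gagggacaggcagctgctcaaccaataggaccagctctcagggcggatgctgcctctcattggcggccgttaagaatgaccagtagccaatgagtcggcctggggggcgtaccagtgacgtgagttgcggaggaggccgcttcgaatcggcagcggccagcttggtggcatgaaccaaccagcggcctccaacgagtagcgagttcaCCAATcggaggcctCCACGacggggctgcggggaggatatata
Hsp90b1 (chr7:23012294-23012543, minus strand): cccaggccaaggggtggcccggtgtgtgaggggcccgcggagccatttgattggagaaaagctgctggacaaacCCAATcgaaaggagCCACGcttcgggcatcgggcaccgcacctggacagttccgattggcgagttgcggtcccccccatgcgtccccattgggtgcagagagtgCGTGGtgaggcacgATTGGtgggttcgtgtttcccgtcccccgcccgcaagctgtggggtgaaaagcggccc
Creld2 (chr7:121789134-121789383, plus strand): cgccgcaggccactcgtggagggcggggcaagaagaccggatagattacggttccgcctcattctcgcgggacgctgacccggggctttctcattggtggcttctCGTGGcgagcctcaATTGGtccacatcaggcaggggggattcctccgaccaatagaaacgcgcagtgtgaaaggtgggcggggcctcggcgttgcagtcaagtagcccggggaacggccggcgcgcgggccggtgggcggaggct
Xbp1 (chr14:84604373-84604622, plus strand): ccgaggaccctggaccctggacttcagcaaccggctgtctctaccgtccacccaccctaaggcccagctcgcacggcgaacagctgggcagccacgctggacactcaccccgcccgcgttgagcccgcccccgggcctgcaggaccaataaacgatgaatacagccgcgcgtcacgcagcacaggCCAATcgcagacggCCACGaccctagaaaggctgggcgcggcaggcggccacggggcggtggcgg
Herpud1 (chr19:10614708-10614957, minus strand): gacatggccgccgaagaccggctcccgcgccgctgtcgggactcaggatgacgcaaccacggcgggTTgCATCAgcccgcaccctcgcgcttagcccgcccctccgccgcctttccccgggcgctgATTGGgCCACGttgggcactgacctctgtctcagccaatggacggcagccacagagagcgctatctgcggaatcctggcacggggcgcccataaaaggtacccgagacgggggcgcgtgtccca
Trib3 (chr3:161275534-161275783, minus strand): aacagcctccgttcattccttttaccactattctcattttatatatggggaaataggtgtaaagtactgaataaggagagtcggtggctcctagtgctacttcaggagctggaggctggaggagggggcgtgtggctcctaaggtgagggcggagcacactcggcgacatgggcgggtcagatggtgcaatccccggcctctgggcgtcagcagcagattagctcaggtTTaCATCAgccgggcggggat
The capitals in Hspa5, Hsp90b1, Creld2 and Xbp1 mark the ER stress element ERSE (CCAAT and CCACG with 9 bases of any kind between them), to which ATF6 binds with the CCAAT factor NF-Y. In Herpud1 they mark ERSE-II (ATTGG and CCACG with 1 base of any kind between them) and the composite ATF4 element CARE (TGATGNAA), and in Trib3 they mark CARE.

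ERSE was found in 22 of 33469 RefSeq promoter windows of this length (0.0657%) and in 7 of the 27 member genes that have a window. These 7 were Hspa5, Hsp90b1, Calr, Canx, Creld2, Dnajc3 and Xbp1, with 2 matches in Hsp90b1. In Hspa5 the match ran from base -43 to base -25, counted from the start site, and in Xbp1 from -65 to -47. ERSE-II was found in Herpud1 and Hyou1 against 0.0418% of all windows. The UPR element TGACGTGG, bound by XBP1 and ATF6, was found in Hyou1 against 0.52% of all windows, and there it overlapped 1 of the 2 ERSE-II matches. CARE was found in Trib3, Chac1 and Herpud1 against 3.4% of all windows. A match describes letters only, and the arrays do not show whether a factor was bound.

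**Figure D1:**
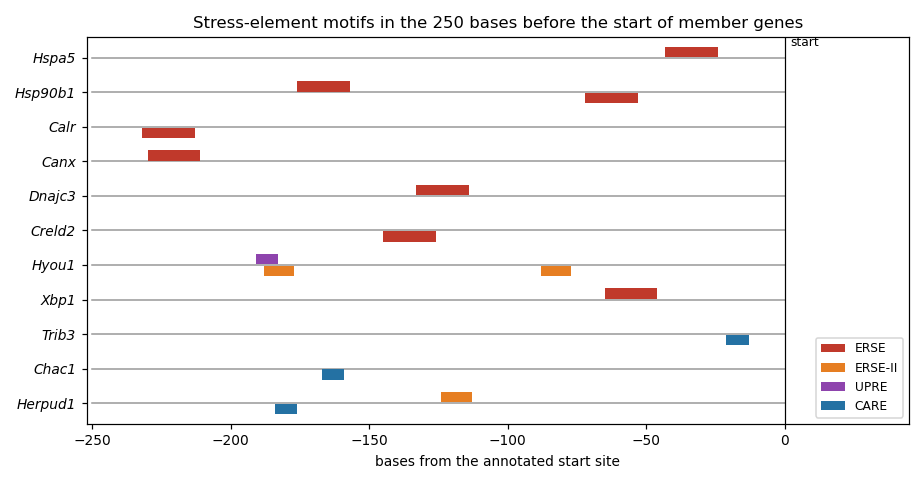
Positions of motif matches in the 250 bases before the start site of the 11 member genes that hold one (x axis, bases from the start site; bars above a line are matches on the strand of the gene, bars below it on the other strand). ERSE matches lie in 7 genes, mostly of the chaperone group, and CARE in Trib3, Chac1 and Herpud1.

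In CCl4 livers the mean signal of 28 of the 32 genes was higher than in vehicle livers (median difference 0.32), or of 15 with array medians centred. In CCl4+Rot livers the mean of 30 of the 32 was lower than in CCl4 livers (median -0.27), or of 19 with array medians centred. With medians centred and CCl4 replicate 3 left out the counts were again 28 and 30. The median over all 14377 genes was 0.13 in the first comparison, with 61.2% of genes higher, and -0.05 in the second, with 43.8% higher. Over the 9811 genes called present on at least 3 arrays, as all 32 were, these medians were 0.04 and 0.01. Both comparisons use the same 3 CCl4 arrays, so their opposite signs are not 2 independent results. Without CCl4 replicate 3 the medians of the 32 genes were 0.41 and -0.32, and without CCl4 replicate 1 they were 0.25 and -0.18.

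No member was called in either comparison, against 0% of all genes in each, and the smallest adjusted p by limma was 0.18 for CCl4 minus vehicle and 0.65 for CCl4+Rot minus CCl4. At an unadjusted p below 0.05, 10 members were higher with CCl4, against 9.49% of all genes, and 1 was lower, against 4.01%. In 12 members every CCl4 array lay above every vehicle array, against 12.5% of all genes, and in 2 every CCl4 array lay below, against 8.53%. Between CCl4 and CCl4+Rot no member was higher at this p, against 2.1% of all genes, and 4 were lower, against 3.4%. In 9 members every CCl4+Rot array lay below every CCl4 array, against 5.6% of all genes, and in no member did all lie above, against 5.57%. The 4 lower genes were Ssr2, Creld2, Ssr1 and Sdf2l1. Without CCl4 replicate 3 the count was 8, where 349 of all 14377 genes were lower at this p. Over the 9811 genes seen on 3 or more arrays, the counts for p below 0.05 were 925 higher with CCl4 and 157 lower with CCl4+Rot than with CCl4.

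Allowing the limma variance prior to follow the mean signal with robust estimation called Creld2 (adjusted p = 0.00813), Sdf2l1 (0.016) and Ssr2 (0.0363) as higher with CCl4, against 1.62% of all genes, and no member in the other comparison, against 0.00696%. Leaving out vehicle replicate 4 ended all 3, with an adjusted p of 0.0605 for Creld2, 0.101 for Sdf2l1 and 0.181 for Ssr2 by the same limma fit, while leaving out any other array kept the Creld2 and Sdf2l1 calls. The Ssr2 call held only without CCl4 replicate 1 or without CCl4+Rot replicate 6. This use of the robust fit on fewer arrays was chosen after seeing the data.

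**Figure D2:**
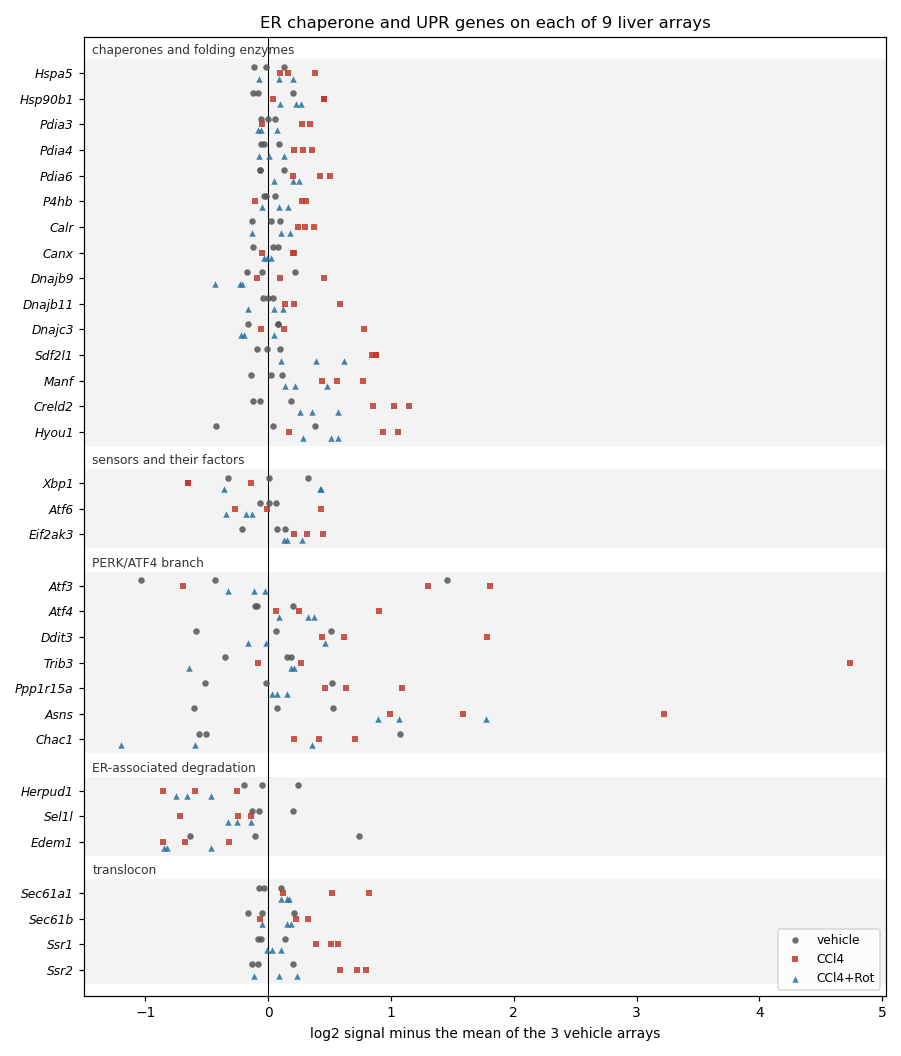
Log2 signal of each of the 32 genes on each of 9 arrays minus the mean of the 3 vehicle arrays (x axis), by role, with 1 point per rat. All 3 CCl4 points lie right of all vehicle points in 7 of the 15 chaperones and 3 of the 4 translocon genes. This is on the deposited scaling, against 12.5% of all genes. Centring on array medians puts 10 of the 15 chaperone means lower with CCl4 than with vehicle. Trib3 shows 1 CCl4 array far from the others.

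The chaperones and folding enzymes had 1 sign throughout as deposited. All 15 had a higher mean with CCl4 than with vehicle, by a median of 0.30, and all 15 a lower mean with CCl4+Rot than with CCl4, by a median of -0.26, whereas centring on array medians gave 5 higher and 10 lower for the first and 6 higher and 9 lower for the second. With median centring and CCl4 replicate 3 left out, the medians were 0.30 and -0.35, with all 15 higher and all 15 lower. No other array was left out under median centring. Quantile normalization (0.41 and -0.33) and centring on the probe sets present on all 9 arrays (0.30 and -0.29) also gave 15 higher and 15 lower. Per array, the median of the group relative to the vehicle mean lay between -0.06 and 0.10 in vehicle livers, between 0.20 and 0.46 in CCl4 livers and between -0.04 and 0.18 in CCl4+Rot livers. As these are whole livers, more RNA per cell and more cells of a type that is rich in these transcripts cannot be told apart.

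Creld2 (Entrez Gene 362978, chromosome 7), an ER-resident protein with disulfide isomerase activity, had the smallest p of any member with CCl4. Its signals were 10.11, 10.17 and 10.42 on vehicle replicates 3, 4 and 5, 11.08, 11.38 and 11.26 on CCl4 replicates 1, 2 and 3, and 10.49, 10.80 and 10.59 on CCl4+Rot replicates 4, 5 and 6. The 3 groups did not overlap, with CCl4+Rot between the others. The difference was 1.01 (SE 0.176; 2.01-fold) for CCl4 minus vehicle (limma adjusted p = 0.18) and -0.61 (SE 0.176) for CCl4+Rot minus CCl4 (adjusted p = 0.691). Without CCl4 replicate 3 these were 1.00 and -0.61.

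Sdf2l1 (Entrez Gene 680945, chromosome 11), a partner of BiP and its J-domain cochaperones, showed a like pattern. In the same array order its signals were 10.70, 10.61 and 10.80 with vehicle, 11.58, 11.54 and 11.58 with CCl4, and 10.81, 11.32 and 11.09 with CCl4+Rot. The CCl4 arrays lay close together, and again no groups overlapped, although the lowest CCl4+Rot array was just above the highest vehicle array. CCl4 exceeded vehicle by 0.87 (SE 0.175; 1.83-fold; limma adjusted p = 0.202), and CCl4+Rot minus CCl4 was -0.50 (adjusted p = 0.724).

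Manf (Entrez Gene 315989, chromosome 8), a small secreted factor kept in the ER by BiP, read 12.45, 12.28 and 12.54 with vehicle, 13.20, 12.98 and 12.86 with CCl4, and 12.56, 12.90 and 12.65 with CCl4+Rot. Every CCl4 array was above every vehicle array, and 1 CCl4+Rot array fell inside the CCl4 range. The difference was 0.59 (SE 0.176; limma adjusted p = 0.281) for CCl4 minus vehicle and -0.31 (adjusted p = 0.765) for CCl4+Rot minus CCl4.

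Hspa5 (Entrez Gene 25617, chromosome 3), which codes for BiP, the main ER chaperone of the HSP70 family and the usual readout of the UPR, differed little. It read 13.85, 13.76 and 14.00 with vehicle, 14.25, 14.03 and 13.97 with CCl4, and 13.80, 14.07 and 13.96 with CCl4+Rot, so the groups overlapped. The difference was 0.21 (SE 0.166; 1.16-fold; limma adjusted p = 0.617) for CCl4 minus vehicle and -0.14 (SE 0.166; adjusted p = 0.844) for CCl4+Rot minus CCl4. Hsp90b1, which codes for the ER HSP90 protein GRP94 and holds 2 ERSE matches, gave 0.32 and -0.12.

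The other 10 chaperones lay between 0.12 for Canx and 0.72 for Hyou1 with CCl4. Hyou1, an HSP110-type exchange factor for BiP, passed an unadjusted p of 0.05 (limma adjusted p = 0.397), but 1 CCl4 array at 9.57 lay below the highest vehicle array at 9.79. Among the disulfide isomerases, Pdia6 was higher by 0.38 (limma adjusted p = 0.401) and Pdia4 by 0.28, without overlap in either, while Pdia3 (0.19) and P4hb (0.16) overlapped because CCl4 replicate 3 read as low as the vehicle arrays. The lectin chaperones Calr and Canx, which hold glycoproteins during folding, differed by 0.30 and 0.12. The 3 probe sets of Canx did not have 1 sign with CCl4, at -0.13, 0.25 and 0.12. The J-domain cochaperones Dnajb11, Dnajc3 and Dnajb9 differed by 0.31, 0.28 and 0.16, with CCl4 replicate 1 the highest array of the 9 in each. Without that array, Dnajc3 and Dnajb9 differed by 0.04 and 0.00.

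With rottlerin added, 6 chaperones lay below CCl4 without overlap: Creld2, Sdf2l1, Pdia4 (-0.26), Calr (-0.25), Dnajb9 (-0.45) and Dnajb11 (-0.31), against 5.6% of all genes. Dnajb9 was the only one of these that also lay below every vehicle array, at 11.48, 11.68 and 11.69 against 11.86, 11.73 and 12.12, a difference of -0.29 (SE 0.202; limma adjusted p = 0.822).

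**Figure D3:**
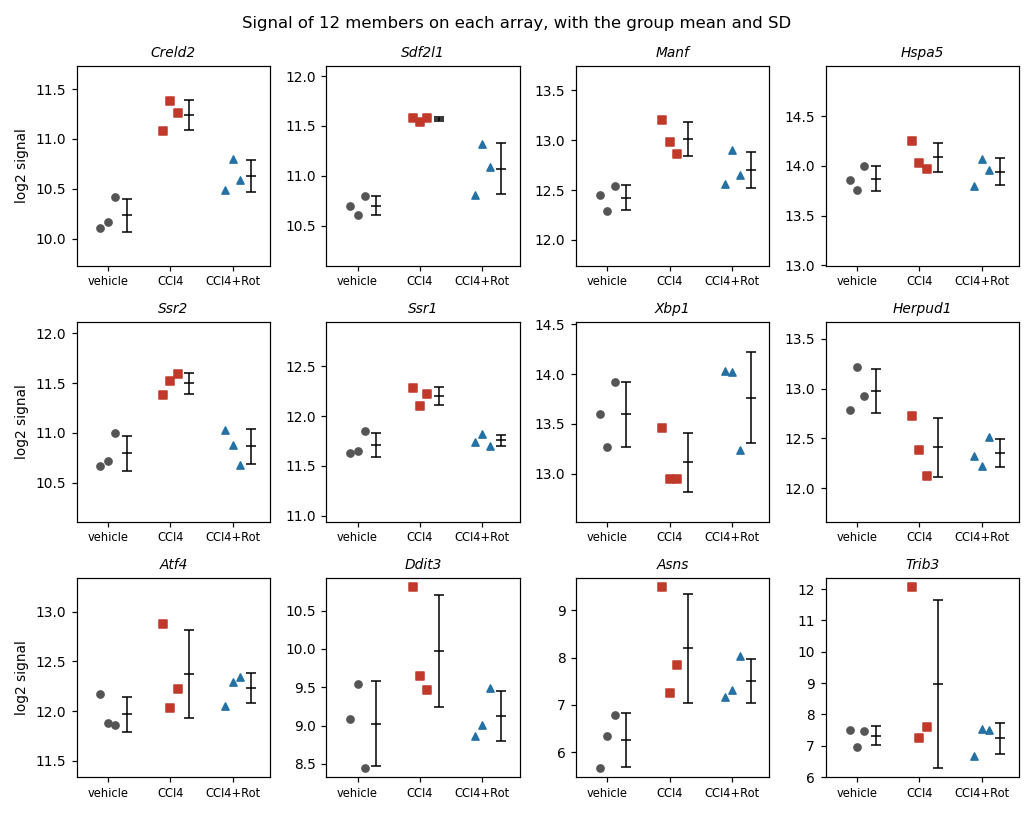
Log2 signal of 12 members on each array (points, 1 per rat) with group mean and SD (n = 3 per group), each gene on its own y axis. Creld2, Sdf2l1, Ssr2 and Ssr1 are highest in all 3 CCl4 livers, while the CCl4 means of Atf4, Ddit3, Asns and Trib3 carry 1 high array.

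The translocon genes followed the chaperones. All 4 had a higher mean with CCl4 than with vehicle (median 0.49) and a lower one with CCl4+Rot than with CCl4 (median -0.40), and with array medians centred it was 3 higher and 1 lower, then 1 higher and 3 lower. Ssr1 and Ssr2 code for subunits of the translocon-associated protein complex, which helps some signal sequences through the channel. Ssr2 (Entrez Gene 295235, chromosome 2) read 10.67, 10.72 and 11.00 with vehicle, 11.38, 11.52 and 11.59 with CCl4, and 11.03, 10.88 and 10.68 with CCl4+Rot. Every CCl4 array was above all 6 other arrays, and the CCl4+Rot and vehicle arrays spanned nearly the same range. It gave 0.70 (SE 0.174, 1.63-fold, limma adjusted p = 0.24) for CCl4 minus vehicle and -0.63 (SE 0.174, adjusted p = 0.65) for CCl4+Rot minus CCl4. By the probe sets used, this was the smallest p of the members in that comparison.

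Ssr1 (Entrez Gene 361233, chromosome 17) read 11.63, 11.65 and 11.85 with vehicle, 12.28, 12.10 and 12.22 with CCl4, and 11.74, 11.82 and 11.70 with CCl4+Rot. Here too the CCl4 arrays stood above all others, by 0.49 over vehicle (SE 0.149; limma adjusted p = 0.285), with CCl4+Rot minus CCl4 at -0.45 (adjusted p = 0.724). Its other probe set gave 0.47 and -0.37. Sec61a1, the channel-forming subunit, differed by 0.49 and -0.34, and its other detected probe set by 0.52 and -0.71. The unadjusted limma p of that -0.71 was 0.0028, below the 0.0073 of Ssr2 in the same comparison. Sec61b, a small channel subunit, differed by 0.16 and -0.07, with overlap in both.

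**Figure D4:**
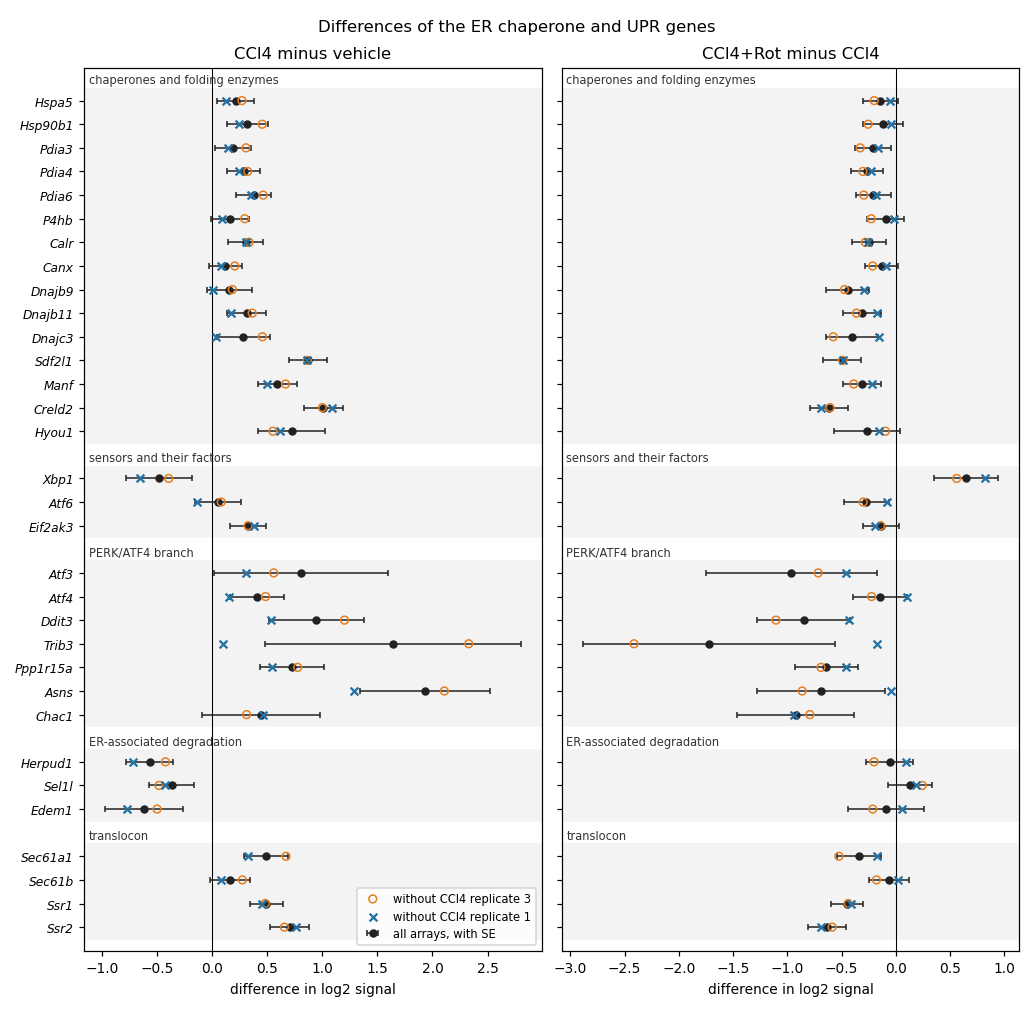
Difference in log2 signal of each member for CCl4 minus vehicle (left) and CCl4+Rot minus CCl4 (right), with the SE of the limma fit (black), and without CCl4 replicate 3 (open circles) or CCl4 replicate 1 (crosses). On the deposited scaling all 15 chaperones lie right of 0 on the left and left of 0 on the right, and centring on array medians puts 10 of 15 below 0 on the left and 6 of 15 above 0 on the right. Trib3, Asns and Atf3 move most when CCl4 replicate 1 is left out.

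The PERK/ATF4 branch had wider differences between rats than the chaperones, and CCl4 replicate 1 weighed heavily in its means. All 7 genes had a higher mean with CCl4 than with vehicle under each scaling tried (median 0.81 as deposited), and all 7 a lower mean with CCl4+Rot than with CCl4 (median -0.85), or 6 of 7 with array medians centred. Per array, the group median relative to vehicle was 1.78 on CCl4 replicate 1, 0.21 on CCl4 replicate 2 and 0.63 on CCl4 replicate 3, against -0.51 to 0.08 in vehicle and 0.03 to 0.19 in CCl4+Rot livers. Without CCl4 replicate 1 the medians over the genes were 0.46 and -0.43, and 1 of the 7, Atf4, was higher with CCl4+Rot than with CCl4. At an unadjusted p below 0.05, Ppp1r15a and Asns were higher with CCl4, against 9.49% of all genes. No gene of the branch passed in the other comparison, where 2.1% of all genes were higher and 3.4% lower.

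Atf4 (Entrez Gene 79255, chromosome 7), the transcription factor of the branch, read 12.17, 11.88 and 11.86 with vehicle, 12.88, 12.03 and 12.22 with CCl4, and 12.06, 12.29 and 12.34 with CCl4+Rot. CCl4 replicate 1 was the highest of the 9 arrays and CCl4 replicate 2 lay within the vehicle range. The difference was 0.41 (SE 0.248; limma adjusted p = 0.53) with CCl4 and 0.16 without CCl4 replicate 1. For CCl4+Rot minus CCl4 it was -0.15 (limma adjusted p = 0.895) and 0.10 without CCl4 replicate 1.

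Ddit3 (Entrez Gene 29467, chromosome 7), which codes for CHOP, a factor linked to cell death under lasting ER stress, read 9.09, 9.54 and 8.44 with vehicle, 10.80, 9.65 and 9.46 with CCl4, and 8.86, 9.01 and 9.49 with CCl4+Rot. The groups overlapped, and CCl4 replicate 1 was again the highest. It gave 0.95 (SE 0.428; 1.93-fold; limma adjusted p = 0.424) for CCl4 minus vehicle and -0.85 (SE 0.428; adjusted p = 0.76) for CCl4+Rot minus CCl4. Leaving out CCl4 replicate 1 brought these to 0.53 and -0.43.

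Trib3 (Entrez Gene 246273, chromosome 3), a pseudokinase that ATF4 and CHOP induce, was the extreme case. It was called present on no vehicle array, on 2 CCl4 arrays and on 1 CCl4+Rot array, and read 12.06 on CCl4 replicate 1 against 6.68 to 7.59 on the other 8 arrays. The mean CCl4 signal was 3.12-fold that of vehicle (8.96 against 7.32, SE 1.16, limma adjusted p = 0.585). The vehicle signals, called absent, may be background. The difference was 0.09 without CCl4 replicate 1. The other Trib3 probe sets, called present on 8 and 9 arrays, gave 2.05 and 1.67 with all arrays.

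Asns (Entrez Gene 25612, chromosome 4), asparagine synthetase, was the branch member with the least overlap. It read 5.66, 6.34 and 6.79 with vehicle, 9.48, 7.26 and 7.85 with CCl4, and 7.16, 7.33 and 8.04 with CCl4+Rot. Both CCl4-treated groups lay above every vehicle array, by 1.93 (SE 0.589; limma adjusted p = 0.287) with CCl4 and by 1.24 (adjusted p = 0.659) with CCl4+Rot. Without CCl4 replicate 1 the first was 1.29, and CCl4+Rot minus CCl4 went from -0.69 to -0.05.

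Ppp1r15a (Entrez Gene 171071, chromosome 1), which codes for GADD34, the phosphatase subunit that reverses eIF2alpha phosphorylation, read 7.91, 8.95 and 8.41 with vehicle, 9.52, 8.89 and 9.06 with CCl4, and 8.58, 8.46 and 8.50 with CCl4+Rot. All 3 CCl4+Rot arrays lay below all 3 CCl4 arrays, with a mean difference of -0.64 (SE 0.29; limma adjusted p = 0.752), while vehicle replicate 4 lay within the CCl4 range. Chac1, a glutathione-degrading enzyme under ATF4, differed by 0.44 and -0.92, with 1 vehicle array at 9.74 the highest of all 9.

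Atf3, a stress-induced transcription factor, read 7.14, 9.63 and 7.74 with vehicle, 9.98, 7.48 and 9.47 with CCl4, and 8.14, 7.84 and 8.05 with CCl4+Rot. It was therefore high in 1 vehicle liver and in 2 of the 3 CCl4 livers. The immediate-early genes Jun and Egr1, which respond to tissue handling as well as to injury, were at 13.04 and 13.16 in vehicle replicate 4 and at 13.01 and 13.84 in CCl4 replicate 1, against at most 12.04 and 12.69 on the other arrays. The summed signal of 9 measured genes for handling stress and cytosolic heat shock was 15.22 and 15.34 (log2) on those arrays and 14.11 to 14.78 on the other 7. Bright genes such as Jun and Egr1, which are among the 9, weigh most in this sum. The median of the 9 relative to the vehicle mean was 0.40 and 0.20 on those arrays and -0.63 to 0.08 on the others. Not every gene was high there. Hspa1a read 7.76 on CCl4 replicate 1, below every vehicle array, and Ier3 read 11.30 on vehicle replicate 4, below both other vehicle arrays. The part of handling in the PERK/ATF4 values was not tested.

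Of the sensors and their factors, 3 were read and the signs were mixed. Xbp1 (Entrez Gene 289754, chromosome 14), the factor that IRE1 activates by splicing, read 13.60, 13.27 and 13.92 with vehicle, 13.46, 12.95 and 12.94 with CCl4, and 14.03, 14.02 and 13.24 with CCl4+Rot. The groups overlapped. It had the opposite signs to the chaperones, at -0.48 (SE 0.297; limma adjusted p = 0.536) for CCl4 minus vehicle and 0.65 (SE 0.297; adjusted p = 0.752) for CCl4+Rot minus CCl4. Eif2ak3, which codes for PERK, differed by 0.32 and -0.14, and every CCl4 array lay above every vehicle array. Atf6 differed by 0.05 and -0.27, with CCl4 replicate 1 at 11.16 the highest array and CCl4 replicate 2 at 10.46 below every vehicle array. With array medians centred, all 3 means were lower with CCl4 than with vehicle.

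The ER-associated degradation members had the opposite sign to the chaperones with CCl4, as deposited. All 3 that were read had a lower mean with CCl4 than with vehicle under each scaling tried (median -0.57 as deposited), and all 3 a lower mean with CCl4+Rot than with vehicle (median -0.62). Herpud1 (Entrez Gene 85430, chromosome 19), a membrane protein of the retrotranslocation complex and usually a strong UPR target, read 12.78, 13.22 and 12.93 with vehicle, 12.72, 12.39 and 12.12 with CCl4, and 12.32, 12.23 and 12.51 with CCl4+Rot. Every array of both CCl4-treated groups lay below every vehicle array. The difference was -0.57 (SE 0.213; limma adjusted p = 0.357) with CCl4, -0.62 (SE 0.213; adjusted p = 0.469) with CCl4+Rot, and -0.06 between them.

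Sel1l, the adaptor of the HRD1 ubiquitin ligase, differed from vehicle by -0.37 with CCl4 and by -0.24 with CCl4+Rot, without overlap in either. Edem1 (Entrez Gene 297504, chromosome 4), which trims mannose from glycoproteins bound for degradation, read 13.19, 13.72 and 14.57 with vehicle, 13.51, 13.15 and 12.97 with CCl4, and 12.98, 13.36 and 13.01 with CCl4+Rot. The vehicle arrays spread widely and overlapped both other groups, at -0.62 (SE 0.352; limma adjusted p = 0.504) with CCl4 and -0.71 (adjusted p = 0.686) with CCl4+Rot. All 3 Edem1 probe sets were lower in both. Between CCl4 and CCl4+Rot the group showed no common sign as deposited (1 higher, 2 lower), and with array medians centred all 3 were higher. Other degradation genes, picked out of the wider ER list described later after their values were seen, did not all share this sign as deposited. Of the 15 listed, 12 were measured, and 9 of these had a higher mean with CCl4 than with vehicle. Their median was 0.09, against 0.13 over all genes, of which 61.2% were higher. With array medians centred, 3 were higher and 9 lower (median -0.26), the sign of the 3 members. Among the 9 higher as deposited was Edem2, of the same family as Edem1, at 0.58 (limma adjusted p = 0.337) without overlap. Edem3, also among them, was called present on no array.

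Set against vehicle, CCl4+Rot livers differed little over the 32 genes. The mean was higher in 21 and lower in 11 (11 and 21 with array medians centred), with a median of 0.07, against a median of 0.03 over all genes with 53.8% higher. No member was called by limma (smallest adjusted p = 0.469), against 0.0209% of all genes, and none by the robust fit, against 1.17%. At an unadjusted p below 0.05 none was higher, against 7.46% of all genes, and Herpud1 alone was lower, against 2.33%. In 5 members every CCl4+Rot array lay above every vehicle array, against 15.2% of all genes, and in 4 every array lay below, against 9.47%. The 5 were Creld2 (0.40), Sdf2l1 (0.37), Manf (0.28), Asns (1.24) and Sec61a1 (0.15), and the 4 were Herpud1, Sel1l, Dnajb9 and Atf6 (-0.22). The chaperone median was 0.07, with 11 higher and 4 lower as deposited and 6 higher and 9 lower with array medians centred.

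A wider list of 76 genes for ER folding, glycosylation, translocation and degradation, of which 71 were measured, was read beside the members. With CCl4, 56 had a higher mean than with vehicle (median 0.18), or 23 with array medians centred and 50 with that centring and CCl4 replicate 3 left out. Of the 71, 15 were higher at an unadjusted p below 0.05, against 9.49% of all genes, and 1 was lower, against 4.01%. The smallest p values belonged to Sec11c, a signal peptidase subunit (1.00, limma adjusted p = 0.214), Erp29, an ER folding assistant (0.96, adjusted p = 0.221), and Fkbp11, a prolyl isomerase (1.05, adjusted p = 0.231). With the robust limma fit these 3 were called, at adjusted p values of 0.0173, 0.0246 and 0.0291, against 1.62% of all genes. Without vehicle replicate 4 that fit called 21 of all genes, against 233 with all arrays.

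Between CCl4+Rot and CCl4, 51 of the 71 had a lower mean (median -0.19), or 29 with array medians centred. There were 3 lower at an unadjusted p below 0.05, a share near the 3.4% of all genes. Without CCl4 replicate 3 there were 13, where 349 of all 14377 genes were lower. The 3 were Sec11c (-0.63), Fkbp11 (-0.65) and Ssr4, another translocon-associated subunit (-0.44). Sec11c read 10.74, 10.76 and 11.25 with vehicle, 12.01, 12.03 and 11.72 with CCl4, and 11.11, 11.28 and 11.48 with CCl4+Rot, so the CCl4 arrays stood above both other groups. Against vehicle, CCl4+Rot was higher at an unadjusted p below 0.05 in 4 of the 71, no larger a share than the 7.46% of all genes. The 4 included Kdelr3, an ER retrieval receptor (1.12, 2.18-fold, called present on no vehicle array, limma adjusted p = 0.403). Also among them were Spcs1, a signal peptidase subunit (0.44), and P4ha1, a collagen prolyl hydroxylase (0.40).

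Of 41 further genes of the integrated stress response, which joins PERK to the other eIF2alpha kinases, 40 were measured. With CCl4, 28 had a higher mean (median 0.25), or 18 with array medians centred, and without CCl4 replicate 1 the count was 25 (median 0.14). The serine synthesis enzyme Psat1 differed by 1.96 (3.89-fold, called present on no vehicle array, limma adjusted p = 0.231), and the amino acid transporter Slc7a5 by 1.39 (adjusted p = 0.231). Between CCl4+Rot and CCl4, 32 of the 40 had a lower mean (median -0.24), or 20 with array medians centred, and without CCl4 replicate 1 this became 22 lower and 18 higher (median -0.08).

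At an unadjusted p below 0.05, 9 of the 40 were higher with CCl4, against 9.49% of all genes, and 2 were lower, a share near the 4.01% of all genes. These 2, of the 12 with a lower mean, were Eif2ak2, which codes for the RNA-activated eIF2alpha kinase PKR, and Ppp1r15b, the constitutive eIF2alpha phosphatase subunit. Eif2ak2 read 9.63, 9.94 and 9.57 with vehicle, 8.74, 8.91 and 9.14 with CCl4, and 9.69, 10.30 and 9.92 with CCl4+Rot. Every CCl4 array lay below all 6 others, by a difference of -0.78 from vehicle (limma adjusted p = 0.26), and CCl4+Rot exceeded CCl4 by 1.04 (SE 0.22; adjusted p = 0.608). Ppp1r15b gave -0.45 and 0.42. Ddit4, a stress-induced inhibitor of mTOR signalling, was higher than vehicle by 0.75 with CCl4 and by 0.71 with CCl4+Rot. Counted after the values were seen, 24 of the 40 genes had their highest signal on CCl4 replicate 1, against 8.64% of all genes, and 9 on CCl4 replicate 3, against 38.7%. In the PERK/ATF4 branch 6 of the 7 were highest on CCl4 replicate 1. The trait was not particular to these lists. The same array was the highest for 9 of the 15 chaperones, 3 of the 4 translocon genes and 30 of the 71 genes of the wider ER list.

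**Figure D5:**
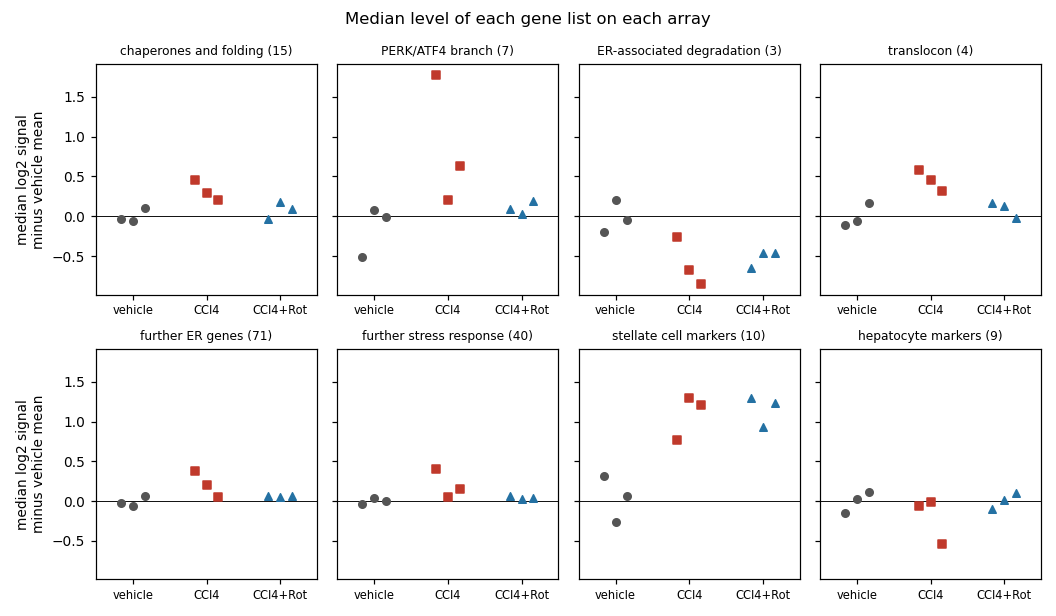
Median over the genes of each list (number of genes in the panel title) of the log2 signal minus the vehicle mean, for each array (1 point per rat). The PERK/ATF4, further stress response and chaperone panels have CCl4 replicate 1 as their highest point, at 1.78, 0.41 and 0.46. So do the translocon (0.58) and further ER (0.38) panels. The chaperone panel has all 3 CCl4 arrays at 0.20 or above on the deposited scaling, which does not hold with array medians centred.

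Markers of the cell types in these livers moved in their own ways. The 9 measured hepatocyte markers were called present on all 9 arrays, and their summed signal (log2) was 17.98 to 18.21 with vehicle, 17.55 to 18.10 with CCl4 and 18.02 to 18.11 with CCl4+Rot, with CCl4 replicate 3 the lowest. The sum of 10 stellate cell and myofibroblast markers was 13.06 to 13.78, 14.30 to 15.08 and 14.87 to 15.17, so both CCl4-treated groups lay above vehicle and overlapped each other. All 10 had a higher mean than vehicle in both groups, or 8 of 10 with CCl4 when array medians were centred. The 8 macrophage markers summed to 13.84 to 14.16, 14.23 to 14.68 and 14.59 to 14.84, with Itgam called present on no array.

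The 6 measured markers of plasma and B cells, of which plasma cells have a large ER, summed to 11.40 to 11.89, 11.59 to 11.89 and 11.49 to 11.79, a sum carried mostly by Sdc1, which epithelial cells also express. Jchain, the joining chain of secreted antibodies, differed by 0.72 for CCl4 minus vehicle and 0.27 for CCl4+Rot minus CCl4, with overlap in both. Mzb1, an ER protein of antibody-secreting cells, gave 1.84 and -0.90 without overlap in either, but was called present on 1 of the 9 arrays, as was Pou2af1. The 5 cholangiocyte markers summed to 9.83 to 10.06, 11.35 to 12.40 and 10.31 to 11.25, mostly through Spp1, with Krt7 called present on no array. The 5 endothelial markers summed to 13.11 to 13.29, 12.72 to 13.21 and 13.17 to 13.30. The part of cell composition in the differences of the ER genes was not tested.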

How the data were processed

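Liver RNA of 9 rats was read on Affymetrix whole-genome rat arrays, 1 per rat. The authors deposited log2 signals for 31099 probe sets in 1 table, beside a call of present, marginal or absent per array. The submitters' processing notes name MAS5 and affy without versions. With 2% trimmed at each end, the antilogs of the deposited log2 signals averaged 500 on each array, which shows that they had been scaled. Chromosomes come from the table's own column, whose build is not given in the sources used here. The authors' detection calls served only to count arrays on which a probe set was seen.

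The 57 control probe sets were left out and limma 3.58.1 (R 4.3.3) was run on the other 31042, as 3 group means with no covariate and no further normalization. The study's methods give the 1.5-fold threshold and name no test for the arrays. P values were adjusted by Benjamini-Hochberg over all probe sets. The fit was also run on simulated arrays with independent normal noise. None of these was made to stand apart as CCl4 replicate 3 did, so that run does not test such a case. The member genes, their roles and the further and marker lists were chosen with earlier results of these data known. Signals on every array are given for Hspa5, Xbp1, Atf4 and Ddit3, for the 5 members with the smallest p in each comparison among those present on at least 3 arrays, and for extremes of a role. The further genes named are the 5 with the smallest p in each comparison over both further lists. Where 1 of the groups had no present call, this is stated beside the fold, as the signals of that group may be background. Replicates are separate rats by their labels, and the number of arrays limits the precision. Alternatives were quantile normalization, 3 other centrings, 2 filters on dim probe sets, other fits and fold thresholds, other choices of probe set, a replicate block, and leaving out each array. Centring on probe sets present on all 9 arrays, median centring without CCl4 replicate 3 and the robust fit without each array were added after seeing the data. Promoter windows are from RefSeq (GRCr8), matched by symbol for 27 of the 34 genes, and the table lists no window for Pdia3, Pdia6, Manf, Atf3, Atf6, Sec61a1 and Ern1.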

Additional observations from a re-analysis of the deposited data

How the results depend on the processing

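The number of arrays, 3 a group, limits every value. Signal over background did so for the Trib3 probe set used, called present on no vehicle array, and in part for Asns, while the other 30 genes were called present on all 9 arrays. The number of members called for CCl4 minus vehicle was 0, against 1 (Creld2, limma adjusted p = 0.0438) over probe sets present on at least 3 arrays and 3 with the robust limma fit. Among all genes read, 0, 54 and 233 were called in the same order. With an array left out the member count was 0 each time. It was 0 to 4 where the robust fit was used as well, with 21 to 546 of all genes called. It stayed 0 in the other comparisons throughout. The chaperone median for CCl4 minus vehicle was 0.41 after quantile normalization and -0.055 with median centring, which also gave -0.017 for CCl4+Rot minus CCl4 and -0.042 (with or without CCl4 replicate 3) for CCl4+Rot minus vehicle. With an array left out, these medians ran from 0.25 to 0.36, from -0.31 to -0.17 and from 0.0073 to 0.13. The lower ends of the last 2 were -0.35 and -0.042 where arrays were median-centred as well. Those of the PERK/ATF4 branch ran from 0.46 to 1.21, from -1.04 to -0.43 and from -0.088 to 0.35.

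Members with an unadjusted p below 0.05 were counted too. The share over all genes at this p was counted only for the main fit and without CCl4 replicate 3. The other counts here therefore have no background beside them. For CCl4 minus vehicle the 10 higher became 1 with median centring and 6 with only the 2 groups compared (6 to 10 with an array left out, up to 20 with the robust fit as well), and the 1 lower became 0 with only the 2 groups and with the methods' t-test and 3 with the robust fit (0 to 2, up to 4). For CCl4+Rot minus CCl4 the 0 higher became 1 over present probe sets and with the robust fit (0 to 1), and the 4 lower became 0 with median centring, 8 after quantile normalization and 10 with the robust fit (2 to 8, up to 18, with 7, 7, 9 and 13 for the robust fit without vehicle replicates 3 and 4, CCl4+Rot replicate 5 and CCl4 replicate 2). For CCl4+Rot minus vehicle the 0 higher became 1 with only the 2 groups, 2 over present probe sets, with the methods' t-test or without the dimmest 30%, and 3 with the robust fit (0 to 1, up to 4), and the 1 lower became 0 with median centring and 2 with the robust fit and the methods' t-test (0 to 2). The causes of these moves were not tested. The replicate numbers do not pair the rats: same-numbered arrays had deviations correlated at -0.07, 0.02 and 0.03, and with the number as a replicate block (consensus correlation -0.03) 0 members were called in each comparison.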
